A study of Mus musculus with 32 samples.

Results

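The proteasome genes were taken as the genes whose symbol is Psma, Psmb, Psmc, Psmd, Psme, Psmf or Psmg followed by a number. The rule found 48 genes, listed in both RNA-seq tables, of 23620 genes that both tables hold (26560 in the Lin- table, 25887 in the CD11b+ table). Binding of the RNA-binding protein IGF2BP3 to their transcripts was read from eCLIP, in which protein is crosslinked to RNA by UV light, immunoprecipitated, and the RNA fragments sequenced. All cells were mouse and carried the MLL-Af4 fusion, delivered by an MSCV-MLL-flag-Af4 retrovirus. Lin- cells were bone marrow cells depleted of mature lineages, infected in culture and selected with G418. CD11b+ cells were selected with an antibody from splenic tumors of mice transplanted with MLL-Af4 transduced cells, although the library names begin with bm. For these transplants the study describes fluorouracil-enriched donor marrow and lethally irradiated recipients. The eCLIP labels give no genotype, and the study describes those cells as WT/MLL-Af4. The RNA-seq tables average 3 wild type libraries and 3 libraries with Igf2bp3 knocked out (KO) in each cell type, so a level given here is a mean over both genotypes, made by the authors, and carries no error. No knockout result is given.

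The proteasome degrades proteins tagged with ubiquitin. Its 20S core is a barrel of alpha rings, which gate the entry, and beta rings, which hold the proteolytic sites. The 19S cap recognises, deubiquitinates and unfolds the substrates through a ring of ATPases and a set of non-ATPase subunits. Immune cells can exchange the catalytic beta subunits for the immunoproteasome forms Psmb8, Psmb9 and Psmb10, which favour peptides for antigen presentation. IGF2BP3 is an oncofetal RNA-binding protein with a known preference for CA-rich RNA.

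There were 3 biological and 3 technical eCLIP libraries of Lin- cells, and 2 biological and 2 technical libraries of CD11b+ cells. Each had a size-matched input (smInput) library, a control that skips the enrichment by the antibody. The eCLIP libraries held 4040 to 10054 peaks after the authors removed peaks that overlapped smInput peaks. The smInput libraries held 1047 to 1885 peaks, except Lin- smInput 5 with 217. Read depth was not in the files used here, so peak number was the only measure of library size. Among all genes, Lin- eCLIP biological 2 and technical 5 stood apart from the other Lin- libraries, with 36.5% and 32.2% of peaks within 50 bases of a splice site against 53.5% to 67.4%. The same libraries had 21.9% and 22.3% of peaks in exon 1 against 7.89% to 12.4%. In the RNA tables, the myeloid genes Lyz2 and Csf1r ranked at percentiles 100 and 99.5 in CD11b+ cells and at 99.7 and 97.9 in Lin- cells, while the myeloid gene Itgax ranked at 77.9 and 87.4. The progenitor genes Kit and Flt3 ranked at 97.4 and 98.4 in Lin- cells and at 76.6 and 69.1 in CD11b+ cells, while Myb ranked at 99.7 and 99.9. Itgam, which encodes CD11b itself, had a mean normalized count of 17.0 in the CD11b+ table (percentile 41.8), and is not analysed for Lin- cells. All 4 B cell markers were above 0 in both tables, from 25.4 (Ebf1) to 146 (Cd79a) in CD11b+ while in Lin- cells Ebf1 was the highest of them and the other 3 were at 1.16 to 28.5. The globin genes Hbb-bs and Hba-a1 were at 1083 and 1268 in CD11b+ cells and at 52.2 and 5.85 in Lin- cells. The part of any mixture of cells in the results was not tested, and in bulk cells fewer cells of a type cannot be told apart from less RNA per cell.

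Some of the sites that recurred on proteasome transcripts lay at splice sites and others did not. Peaks of all 10 eCLIP libraries were merged where they overlapped on the strand of the gene, which gave 84 regions on 40 genes. Of these, 24 were present in at least 2 libraries and 10 in at least 3. Of the 24, 12 had their middle within 50 bases of a 3′ splice site, 2 of a 5′ splice site and 10 of neither. Over the regions of all genes, recurring or not, 57.8% in Lin- and 16.8% in CD11b+ cells lay within 50 bases of a splice site. The share for recurring regions of all genes is not given here. The sequences of 5 that recurred at the end of an intron, and of 2 at the start of an intron in genes of catalytic subunits, are shown because most Lin- regions lay at such positions. Sequences are 5′ to 3′ on the gene's strand from GRCm38 (mm10), and capitals mark the AG that ends the intron or the GT that begins it.
Psme1, chr14:55580040-55580160, plus strand: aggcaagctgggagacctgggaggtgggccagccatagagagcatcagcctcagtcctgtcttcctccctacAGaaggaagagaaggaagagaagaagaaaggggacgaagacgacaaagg
Psmb8, chr17:34199514-34199573, plus strand: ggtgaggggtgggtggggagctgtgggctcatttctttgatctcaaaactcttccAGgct
Psma3, chr12:70984619-70984684, plus strand: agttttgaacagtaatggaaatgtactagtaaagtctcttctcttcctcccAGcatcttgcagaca
Psmc5, chr11:106262950-106263010, plus strand: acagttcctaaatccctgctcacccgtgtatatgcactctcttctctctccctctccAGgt
Psme2, chr14:55587740-55587793, minus strand: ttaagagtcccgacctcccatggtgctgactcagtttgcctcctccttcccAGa
Psmb5, chr14:54617767-54617794, minus strand: gGTgctcagacagctcgcgcttctccgg
Psmb6, chr11:70525489-70525523, plus strand: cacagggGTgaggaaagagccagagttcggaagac
In the first 5, pyrimidines preceded the AG. The middle of the region lay 14 bases before the first exon base in Psme1, 28 in Psmb8, 21 in Psma3, 29 in Psmc5 and 26 in Psme2. The middle lay 14 bases into the intron in Psmb5 and 11 in Psmb6.

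Other sites carried runs of CA or GT. In CD11b+ cells 13 of 32 regions (40.6%) held one, against 40.9% of the regions of all genes. A selection of the regions with a run is shown. It leaves out others, such as those of Psma8 and Psmd9. Capitals mark runs of at least 3 CA or GT units.
Psmd13, chr7:140893489-140893596, plus strand: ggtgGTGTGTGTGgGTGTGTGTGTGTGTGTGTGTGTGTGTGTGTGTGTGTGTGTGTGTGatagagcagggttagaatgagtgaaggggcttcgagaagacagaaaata
Psma6, chr12:55408595-55408641, plus strand: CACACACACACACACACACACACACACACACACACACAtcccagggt
Psma6, chr12:55410616-55410683, plus strand: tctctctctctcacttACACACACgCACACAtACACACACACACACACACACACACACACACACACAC
Psma6, chr12:55415087-55415144, plus strand: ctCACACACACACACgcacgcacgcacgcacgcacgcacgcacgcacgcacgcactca
Psmd12, chr11:107495218-107495280, plus strand: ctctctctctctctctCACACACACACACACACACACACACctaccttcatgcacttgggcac
Psme4, chr11:30872818-30872892, plus strand: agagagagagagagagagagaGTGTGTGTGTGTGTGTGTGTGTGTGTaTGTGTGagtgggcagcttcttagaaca
Psmf1, chr2:151732805-151732858, minus strand: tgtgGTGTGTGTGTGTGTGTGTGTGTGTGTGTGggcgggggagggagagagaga
Psmd14, chr2:61765082-61765131, plus strand: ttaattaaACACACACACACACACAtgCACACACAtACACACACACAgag
All of these but Psmd14, seen in 2 Lin- libraries, were from CD11b+ cells. A few sites lay in exons. The middle 30 bases of those seen in at least 3 libraries are given, with no capitals.
Psma1, chr7:114276007-114276036, minus strand: gctgctgggtcaggttgtcgctgcgccgga
Psmd6, chr14:14120876-14120905, minus strand: agccggctcctgtgctgtagccatgccgct
Psme3, chr11:101322180-101322209, plus strand: tctctcccccttcccctgttttaggttttg
The middle of the site lay in the first exon, in the annotated 5'UTR, in Psma1 and Psmd6, and in the 3'UTR in Psme3.

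**Figure D1:**
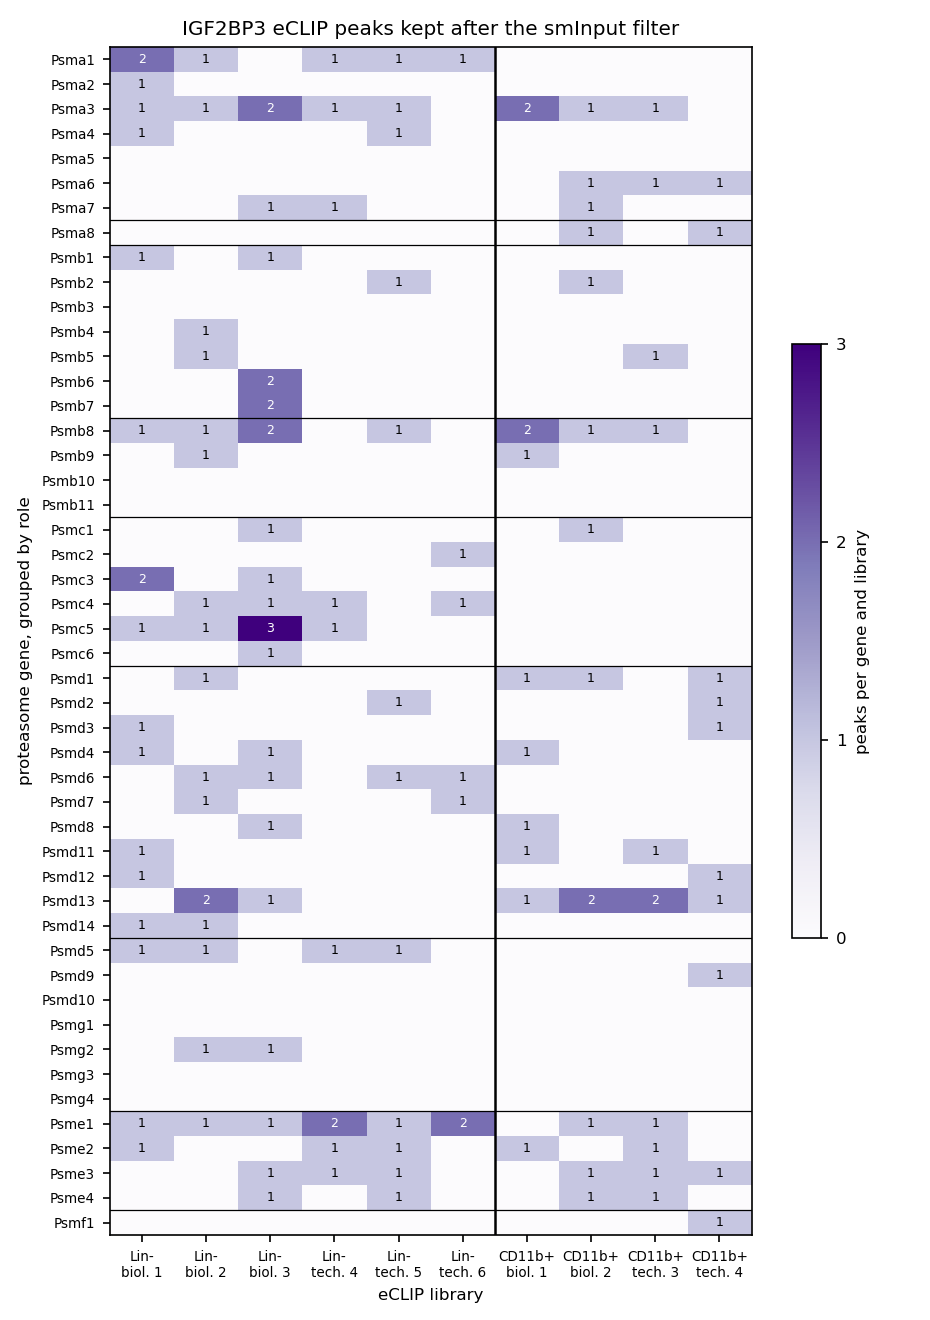
Number of filtered IGF2BP3 eCLIP peaks on each of the 48 proteasome genes (vertical, grouped by role) in each of the 10 eCLIP libraries (horizontal, Lin- left of the thick line and CD11b+ right). Psme1 has a peak in 6 of 6 Lin- libraries and Psmd13 in 4 of 4 CD11b+ libraries, and 8 genes have none.

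In Lin- cells 36 of 48 proteasome genes (75.0%, Wilson 95% interval 61.2% to 85.1%) had a filtered peak in at least 1 library. Over all genes of the Lin- table this share was 26.5%, and over genes at least as high as the proteasome genes' lower quartile of mean normalized count (1459) it was 81.8%. Of the 36 proteasome genes above that level, 34 (94.4%) had a peak. In CD11b+ cells 23 of 48 (47.9%, 34.5% to 61.7%) had a peak, against 25.6% of all genes and 67.9% of genes at or above the members' lower quartile there (956). Of the 36 proteasome genes above it, 18 (50%, 34.5% to 65.5%) had a peak. The intervals cover counting of genes only.

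A peak in at least 2 biological libraries was less frequent. In Lin- cells 14 of 48 genes had one (29.2%), against 13.7% of all genes and 54.3% of genes at or above the lower quartile, where 13 of 36 proteasome genes (36.1%) had one. In CD11b+ cells 4 of 48 had one (8.33%), namely Psma3, Psmb8, Psmd1 and Psmd13, against 10.2% of all genes. The only CD11b+ region of Psmd1 overlaps a snoRNA gene and is described below. Among genes at or above the lower quartile the CD11b+ share was 37.3%, and for proteasome genes it was 11.1% (4 of 36). Proteasome genes were shorter, with a median span of 12.1 kb, than genes of that level, at 30.1 kb in the Lin- table and 23.1 kb in the CD11b+ table. Among genes at that level whose span was also within the members' interquartile range (7.17 to 25 kb), 85.2% had a Lin- peak in any library and 57.3% in 2 biological libraries. The proteasome genes of that stratum had 17 of 17 and 8 of 17 (47.1%). The CD11b+ shares in the same stratum were 70.3% and 34.7% of all genes, and 7 of 18 (38.9%) and 2 of 18 (11.1%) of proteasome genes. No test of these shares against other genes was made.

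A peak was found in both cell types on 19 proteasome genes, in Lin- cells alone on 17, in CD11b+ cells alone on 4 and in neither on 8. The shared genes were 52.8% of the Lin- set and 82.6% of the CD11b+ set. Over all genes in both tables these shares were 65.7% and 69.7%, and over genes at or above the members' lower quartile in both they were 79.7% and 90.9%. The 4 seen in CD11b+ cells alone were Psma6, Psma8, Psmd9 and Psmf1. The 8 without a filtered peak were Psma5, Psmb3, Psmb10, Psmb11, Psmd10, Psmg1, Psmg3 and Psmg4. The number of proteasome genes with a peak was 16, 16 and 19 in the Lin- biological libraries and 9 and 12 in the CD11b+ ones. The ranges did not overlap, with a mean of 17.0 ± 1.73 (SD, n = 3) against 10.5 ± 2.12 (SD, n = 2), and an exact permutation test gave p = 0.1, the smallest that 10 splits allow. Genes of any kind with a peak numbered 3855, 5056 and 4488 in these Lin- libraries against 4177 and 4874, with overlap. The technical libraries overlapped, with 9, 12 and 6 proteasome genes in Lin- against 10 and 10 in CD11b+, and the mean was lower in Lin- (exact permutation p = 0.7). The Lin- technical libraries also held fewer peaks in all, 4040 to 6494. Their genes of any kind with a peak numbered 2453, 3477 and 2799, against 3914 and 3728 in the CD11b+ technical libraries.

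Relative to library size, filtered peaks on proteasome genes numbered 2.45, 1.69 and 2.88 per 1000 peaks in the Lin- biological libraries and 1.29 and 1.29 in the CD11b+ ones. Every Lin- value was higher, by a mean of 1.05 per 1000, and the exact permutation test gave p = 0.2 (n = 3 and 2). With peaks of p below 0.001 the difference was 0.443 per 1000, and that in genes per library was 1.0. The technical libraries gave 2.48, 1.85 and 1.55 in Lin- and 1.45 and 1.41 in CD11b+, again without overlap. Over all 10 libraries the difference was 0.787 per 1000 with an exact permutation p = 0.0238, in which technical libraries count as if they were independent.

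Against smInput, peaks before the filter were compared, since only eCLIP peaks were filtered. The Lin- biological eCLIP libraries held 2.20, 1.55 and 2.62 peaks on proteasome genes per 1000, and the smInput libraries of the same numbers held 0.553, 1.45 and 1.5. These ranges did not overlap, and an exact permutation test gave p = 0.1, the smallest possible (n = 3 each). The rates rest on 20, 18 and 26 eCLIP peaks and on 1, 2 and 2 smInput peaks. In CD11b+ cells the values were 1.15 and 1.10 against 0 and 0 (exact permutation p = 0.333, the smallest possible, n = 2 each). Over all libraries the exact permutation p was 0.00649 in Lin- cells (n = 6 each) and 0.0286 in CD11b+ cells (n = 4 each). There technical libraries count as if they were independent, and the pairing of eCLIP with smInput is not used. The smInput peaks fell on 2 proteasome genes, Psmd1 and Psmd8. The eCLIP and smInput peaks were called with different settings, whose part in this difference was not tested.

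**Figure D2:**
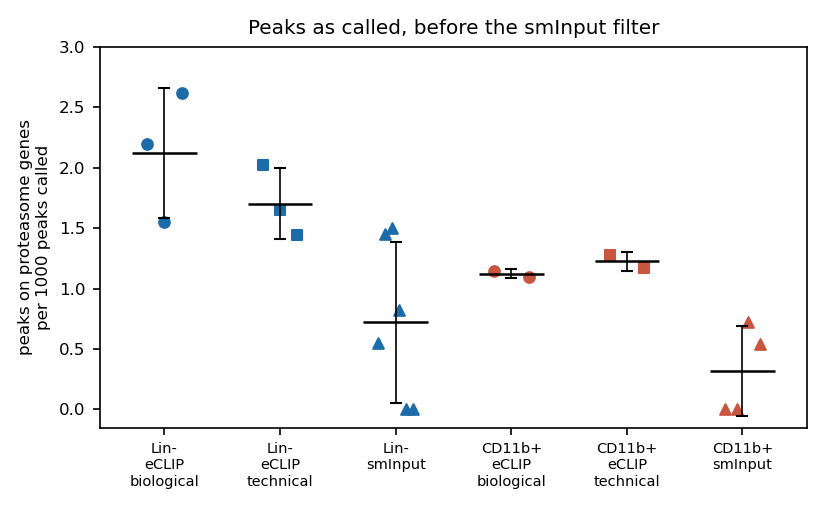
Peaks on proteasome genes per 1000 peaks called, before the smInput filter, in each library (points), with the mean (line) and SD (bars) of each kind of library. The Lin- eCLIP libraries lie between 1.44 and 2.62, the CD11b+ eCLIP libraries between 1.10 and 1.28, and the smInput libraries between 0 and 1.5.

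Most Lin- peaks on proteasome genes lay near splice sites. Taking the transcript with the longest coding sequence, 49 of 60 merged Lin- regions (81.7%, 70.1% to 89.4%) had their middle within 50 bases of a splice site. Over the regions of all genes it was 57.8% of 20458. In CD11b+ cells it was 13 of 32 (40.6%, 25.5% to 57.7%), and 16.8% over the 17603 regions of all genes. Of the total span of the proteasome genes with peaks, 8.77% in Lin- and 7.59% in CD11b+ cells lay that close to a splice site, against 3.43% and 2.88% for all genes with peaks. Of the Lin- regions, 33 were nearest a 3′ splice site, 32 of them on the intron side at a median of 21 bases (range 6 to 45). Another 16 were nearest a 5′ splice site, 14 of them on the intron side at a median of 13 bases (range 4 to 19). In CD11b+ cells 11 regions lay near a 3′ splice site, all on the intron side at a median of 27 bases, and 2 near a 5′ splice site, 13 and 39 bases into the intron.

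Library by library, 88.9%, 52.9% and 96.0% of proteasome peaks lay near a splice site in the Lin- biological libraries, and 63.6% and 38.5% in the CD11b+ ones. The groups overlapped, and the exact permutation p was 0.3. The mean difference of 28.2 points fell to 15.6 without CD11b+ biological 2 and to 9.8 with peaks of p below 0.001. In the technical libraries the shares were 100%, 66.7% and 71.4% against 27.3% and 20.0%, without overlap. Lin- biological 2 and technical 5, which stood apart over all genes, gave the lowest Lin- values here as well. Without them 41 of 45 Lin- regions lay near a splice site (91.1%). A contrast between the cell types was also present over all genes. There 32.2% to 67.4% of peaks in Lin- and 10.3% to 16.3% in CD11b+ libraries lay near a splice site, without overlap.

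**Figure D3:**
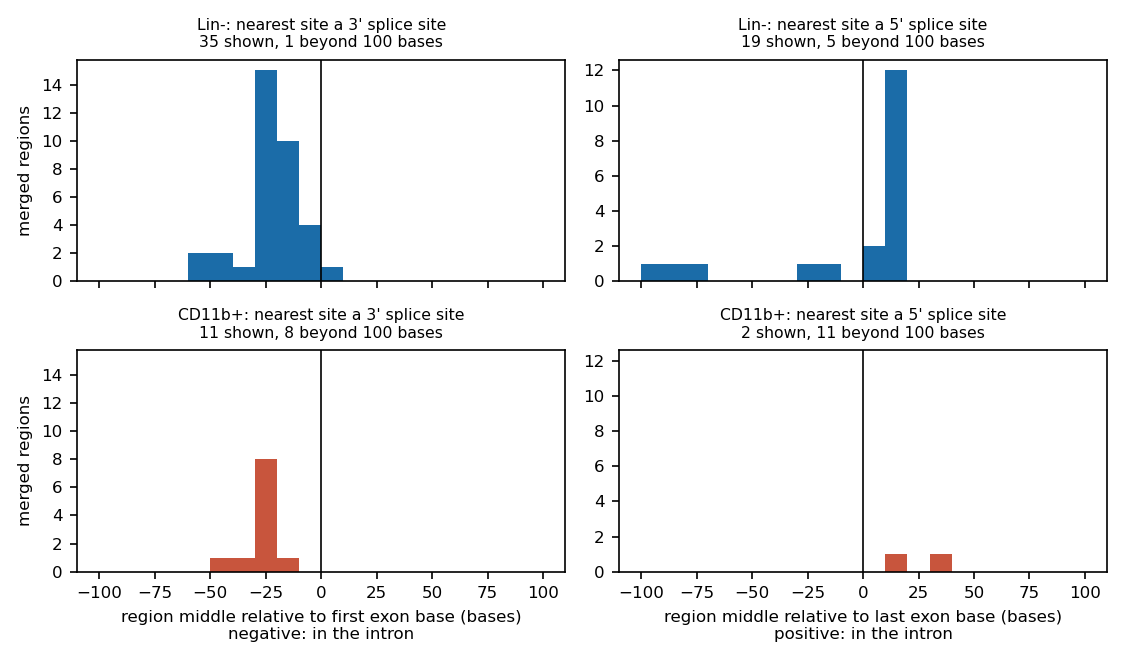
Distance in bases from the middle of each merged region on proteasome genes to the nearest splice site, for regions within 100 bases, in Lin- cells (top) and CD11b+ cells (bottom), split by whether the nearest site is a 3′ (left) or 5′ (right) splice site, with the number of regions on the vertical axis. Most Lin- regions lie in the intron just before the exon or just after it, while 19 of 32 CD11b+ regions lie beyond 100 bases.

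The class of an intronic region depended on the transcripts used. When any annotated transcript could make a base exonic, 34 of 60 Lin- regions (56.7%) and 18 of 32 CD11b+ regions (56.2%) were intronic, and 15 (25%) and 12 (37.5%) lay in exons of noncoding transcripts of the same gene. Over all genes 64.2% and 75.4% were intronic by this rule, and 17.5% and 11.6% lay in noncoding exons. With the longest coding transcript alone 51 (85.0%) and 30 (93.8%) were intronic. Over all genes the shares by that transcript were 79.9% and 86.3%.

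The CA motif, searched as ACACAC or CACACA on the gene's strand, was in 2 of 60 Lin- regions (3.33%) and 7 of 32 CD11b+ regions (21.9%, 11% to 38.8%). Over the regions of all genes it was in 8.37% and 17.1%. The complementary run, GTGTGT or TGTGTG, was in 2 Lin- regions (3.33%, against 8.13% over all genes) and 6 CD11b+ regions (18.8%, against 24.1%). All 13 CD11b+ regions with either run lay more than 50 bases from a splice site, against 97.2% of such regions over all genes. Of the 4 Lin- regions with a run, 1 lay that far out, against 79.9% over all genes. By library, a run was in 5.56%, 5.88% and 8% of the proteasome peaks of the Lin- biological libraries and in 18.2% and 46.2% of the CD11b+ ones. No Lin- value reached a CD11b+ value (exact permutation p = 0.1, the smallest possible, n = 3 and 2), and the technical libraries also did not overlap, with 0% to 10% against 36.4% and 60.0%. The mean difference of -25.7 points became -39.7 without CD11b+ biological 1, -11.7 without CD11b+ biological 2 and -9.4 with peaks of p below 0.001. The same contrast was present over all genes, with 10.9% to 19.2% of peaks in Lin- and 29.1% to 54.7% in CD11b+ libraries. A motif match is a description of these letters only, and the search for the GT run was added after the data were seen.

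Among the 20S alpha subunits (Psma1 to Psma7), 5 of 7 had a Lin- peak and 3 of 7 a CD11b+ peak. Over genes at or above the members' lower quartile the shares were 81.8% and 67.9%. Psma3 had 1, 1 and 2 peaks in the Lin- biological libraries, 1, 1 and 0 in the technical ones, and 2, 1, 1 and 0 in the 4 CD11b+ libraries. The recurring Psma3 site was found in 4 Lin- and 2 CD11b+ libraries, with peak p from 0.0486 to 4.83e-04. Psma3 was also the lowest of the class by RNA per kb, at 563 in Lin- and 527 in CD11b+ cells. By mean normalized count Psma5 was the lowest, at 1170 and 971, against 1601 and 1501 for Psma3. Psma1 had the smallest p among the filtered peaks of the family, while Psmd1 peaks that the smInput filter removed had smaller ones. It covered chr7:114275992-114276052 at the end of exon 1, its middle 21 bases before the 5′ splice site, and was present in Lin- biological 1 and 2 and technical 5 and 6 and in no CD11b+ library. Its peak p values were 0.00294, 3.37e-26, 1.18e-08 and 2.28e-04. The last number in its peak names, read here as the reads in the peak, was 5, 30, 12 and 6. Psma4 and Psma7 each had a peak in 2 Lin- libraries, and Psma2 in 1. Psma7, the highest of the class in CD11b+ cells at 2414 per kb, also had a peak in CD11b+ biological 2.

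Psma6 was high by RNA in both tables. Its mean normalized count per kb of transcript was the highest of the family in Lin- cells, 12224 against 2917 for the next, Psmb8. It had no filtered peak in any of the 6 Lin- libraries. In CD11b+ cells, where it ranked at percentile 95.9 per kb, it had 1 peak in each of biological 2, technical 3 and technical 4. These were 3 separate intronic sites, each a CA repeat (above), with peak p of 0.0210, 0.00256 and 0.0382. Psma8, the testis form that replaces Psma7, was low, at 9.32 per kb in Lin- and 37.4 in CD11b+ cells, and had an intronic GT-repeat peak in CD11b+ biological 2 and technical 4.

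The standard 20S beta subunits were evenly expressed, at 1670 (Psmb3) to 2750 (Psmb2) per kb in Lin- cells and 1083 (Psmb1) to 2428 (Psmb3) in CD11b+ cells. Peaks were found on 6 of 7 in Lin- cells, but 5 of these in a single library each, and on 2 of 7 in CD11b+ cells. Psmb1 was the exception, with 1 site in Lin- biological 1 and 3. Over genes at or above the members' lower quartile, 81.8% had a Lin- and 67.9% a CD11b+ peak in any library. The catalytic subunits Psmb5, Psmb6 and Psmb7, with chymotrypsin-like, caspase-like and trypsin-like activity, had 1, 2 and 2 Lin- peaks, each gene in 1 library. Psmb5 also had an intronic peak in CD11b+ technical 3. Pseudogenes of Psmb5, Psmb6 and Psmb7 are annotated, so the counts of these genes are less certain.

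The immunoproteasome subunit Psmb8 had peaks in both cell types. It had 1, 1 and 2 peaks in the Lin- biological libraries, 0, 1 and 0 in the technical ones, and 2, 1, 1 and 0 in the CD11b+ libraries. The shared site, 28 bases before an exon, was in 4 Lin- and 3 CD11b+ libraries, with its smallest p, 8.93e-06, in Lin- biological 3. An antisense gene, Gm20496, overlaps this site, and the peaks here were on the Psmb8 strand. Psmb9 had 1 peak in Lin- biological 2 and 1, elsewhere in the gene, in CD11b+ biological 1. Psmb10 had none. By RNA the order per kb in Lin- cells was Psmb8 at 2917, Psmb9 at 1317 and Psmb10 at 1114, and in CD11b+ cells Psmb8 at 1209, Psmb10 at 891 and Psmb9 at 583. Psmb11, the thymus form, was nearly absent, at 0.158 and 0.113 per kb.

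**Figure D4:**
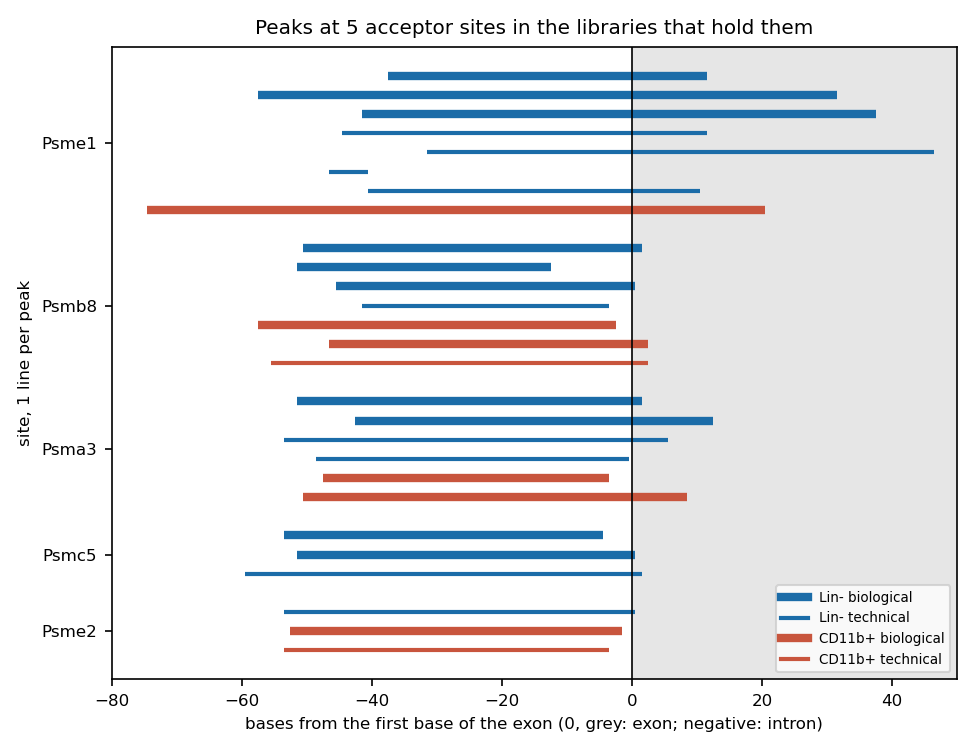
Filtered eCLIP peaks at 5 recurring 3′ splice sites, drawn as lines from the first to the last base relative to the first base of the exon (grey side). Thick lines are biological and thin lines technical libraries, blue Lin- and red CD11b+. At Psme1 all but 1 of the peaks run at least 10 bases into the exon, while at Psmb8 none passes base 2.

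The 19S ATPases (Psmc1 to Psmc6) form the ring that unfolds substrates. All 6 had a Lin- peak, over 12 merged regions, and 1 of 6, Psmc1, a CD11b+ peak, in 1 library. Of all genes at or above the members' lower quartile, 81.8% had a Lin- and 67.9% a CD11b+ peak. Psmc5 had 1, 1 and 3 peaks in the Lin- biological libraries and 1, 0 and 0 in the technical ones. Its sites lay before 3 different exons, with the middle 8, 18 and 29 bases upstream. Psmc4, with the most merged Lin- regions of any member, had 1 peak in each of Lin- biological 2 and 3 and technical 4 and 6, at 4 different places, the one in exon 3 being in the coding sequence. Psmc3 had 2 peaks in Lin- biological 1 and 1 in biological 3, with 1 site shared between them. None of Psmc2 to Psmc6 had a peak in any of the 4 CD11b+ libraries. Their RNA ranged from 1184 (Psmc2) to 1870 (Psmc3) per kb in Lin- cells and from 489 (Psmc6) to 1452 (Psmc3) in CD11b+ cells, and their percentiles in the CD11b+ table were 83.9 to 93.7. No test of the ATPases against the other classes was made.

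All 11 non-ATPase subunits of the cap had a Lin- peak and 8 of 11 a CD11b+ peak, beside the same 81.8% and 67.9% of genes of that level. Psmd6 carried a first-exon site in 4 Lin- libraries (biological 2 and 3, technical 5 and 6) with peak p of 4.86e-12, 6.73e-05, 0.00202 and 0.0328, and none in CD11b+ cells. Psmd7 had a first-exon site in Lin- biological 2 and technical 6. In all, 6 Lin- regions lay in exon 1, on Psma1, Psmd5, Psmd6, Psmd7, Psme2 and Psme4, and no CD11b+ region did. The first-exon peaks numbered 1, 4 and 1 in the Lin- biological libraries and 0, 5 and 3 in the technical ones. By number they were most frequent in the libraries that stood apart, biological 2 and technical 5. As a share of proteasome peaks, Lin- technical 6 was highest at 42.9% (3 of 7), against 41.7% in technical 5 and 23.5% in biological 2. Without Lin- biological 2 and technical 5, 3 first-exon regions were left. Over all genes 11.7% of Lin- regions and 5.04% of CD11b+ regions lay in exon 1, against 10% (6 of 60) and 0 of 32 here, which allows up to 10.7% by the Wilson interval. The exact permutation p for the share per biological library was 0.3 (n = 3 and 2), and the mean difference of 11 points was 4.78 without Lin- biological 2.

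Psmd13 was bound in all 4 CD11b+ libraries, with 1, 2, 2 and 1 peaks. Its GT-repeat site lies inside an intron, more than 100 bases from any splice site, and had peak p of 4.09e-08, 3.14e-05, 1.51e-09 and 0.00457. None of the 6 Lin- libraries had a peak there, although Lin- biological 2 and 3 had 3 peaks elsewhere in the gene. A pair of CA-repeat sites further along Psmd13 were each in 1 CD11b+ library. Psmd14, the deubiquitinase of the cap, had a CA-repeat site in Lin- biological 1 and 2 with a smallest p of 3.17e-06, and no CD11b+ peak. Psmd4, a ubiquitin receptor, had peaks in Lin- biological 1 and 3 and CD11b+ biological 1. Psmd11 had peaks in CD11b+ biological 1 and technical 3 and in Lin- biological 1. The largest subunits, Psmd2 and Psmd1, reached 1670 and 1042 per kb in Lin- cells. Within the class Psmd8 was highest per kb there, at 2152, and Psmd11 lowest, at 863. In CD11b+ cells Psmd2 was highest per kb, at 1262, and Psmd12 lowest, at 466.

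The Psmd1 site was also seen in smInput. It overlaps the snoRNA gene Gm22786 (chr1:86087301-86087422) inside a Psmd1 intron, and is printed because it is the 1 member region that overlaps a smInput peak or an annotated small RNA.
Psmd1, chr1:86087292-86087424, plus strand: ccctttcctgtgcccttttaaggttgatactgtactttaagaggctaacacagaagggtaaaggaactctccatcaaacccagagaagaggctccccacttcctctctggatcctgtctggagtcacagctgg
Before the filter it was called in 9 of 10 eCLIP libraries, and all 7 Lin- peaks removed from proteasome genes were there. Those removed included a p of 9.46e-50 in Lin- biological 2. After the filter it remained in 3 CD11b+ libraries and, in part, in Lin- biological 2. It was also called in Lin- smInput 2, 3 and 4. The snoRNA and the Psmd1 precursor cannot be told apart in these peaks. The smInput peaks on Psmd8 were 11 to 27 bases long, at 1 intronic place in 5 libraries, and no filtered eCLIP region overlapped them.

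Of the 7 assembly chaperones, which help to build the particle and are not part of it, 2 had a Lin- peak and 1 a CD11b+ peak. Over all genes of the tables the shares were 26.5% and 25.6%. The median mean normalized count of the class was 726 in Lin- and 384 in CD11b+ cells. Both lay below the members' lower quartile (1459 and 956). Psmd5 had 1 peak in each of Lin- biological 1 and 2 and technical 4 and 5, at 2 sites of which 1 is in exon 1. Psmg2 had 1 peak in Lin- biological 2 and 3. Psmd9 had a GT-repeat peak in CD11b+ technical 4. Psmd10, Psmg1, Psmg3 and Psmg4 had none. By RNA these genes ranged from 53.8 (Psmg3) to 844 (Psmg4) per kb in Lin- cells and from 76.5 to 539 for the same genes in CD11b+ cells.

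All 4 activator genes had peaks in both cell types. A Lin- peak was on 81.8% and a CD11b+ peak on 67.9% of genes at or above the members' lower quartile. Psme1 and Psme2 encode PA28 alpha and beta, the interferon-induced cap that opens the core without ATP. Psme1 had 1, 1 and 1 peaks in the Lin- biological libraries and 2, 1 and 2 in the technical ones, and 0, 1, 1 and 0 in the CD11b+ libraries. Its main site was in all 6 Lin- libraries, with peak p from 0.0207 to 5.89e-10. It was also in CD11b+ biological 2, with a peak p of 0.0383. Psme1 was also the activator with the highest RNA per kb, 2854 in Lin- and 2535 in CD11b+ cells. By mean normalized count, Psme3 was highest in Lin- cells (4711 against 3173 for Psme1) and Psme1 in CD11b+ cells (2819). Psme2 had peaks in 3 Lin- libraries and 2 CD11b+ libraries, and the site 26 bases before an exon was in 1 and 2 of them. Psme3, the nuclear PA28 gamma, had peaks in 3 Lin- libraries, each at a different place, and 1 recurring 3'UTR site in CD11b+ biological 2 and technical 3 and 4 with p of 2.41e-04, 0.0299 and 0.00236. Psme4, the PA200 activator, had an intronic GT-repeat site in CD11b+ biological 2 and technical 3, and 2 other sites in Lin- biological 3 and technical 5. Psme4 was the lowest activator by RNA per kb, at 596 and 235. By mean normalized count, Psme2 was lowest in Lin- cells (1455 against 3869 for Psme4) and Psme4 in CD11b+ cells (1524). Psmf1, the inhibitor PI31, had 1 GT-repeat peak in CD11b+ technical 4 and none in Lin- cells, with RNA of 244 and 144 per kb.

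By RNA the proteasome genes stood high in both tables. Percentile here is the share of genes of the table with a lower mean normalized count. The median percentile of the 48 genes was 87.4 in Lin- and 88.2 in CD11b+ cells, and per kb of transcript it was 93.5 and 91.6. Of the 48 genes, 37 lay above the 80th percentile and 16 above the 90th, in Lin- as in CD11b+ cells. The median mean normalized count was 2163 against 54.7 for all genes in Lin- cells, and 1529 against 47.3 in CD11b+ cells. The tables were normalized separately, so levels were ranked within each and not compared between them. Across the 48 genes Spearman's rho between the tables was 0.78, given as a description, since the genes share the libraries and their lengths.

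**Figure D5:**
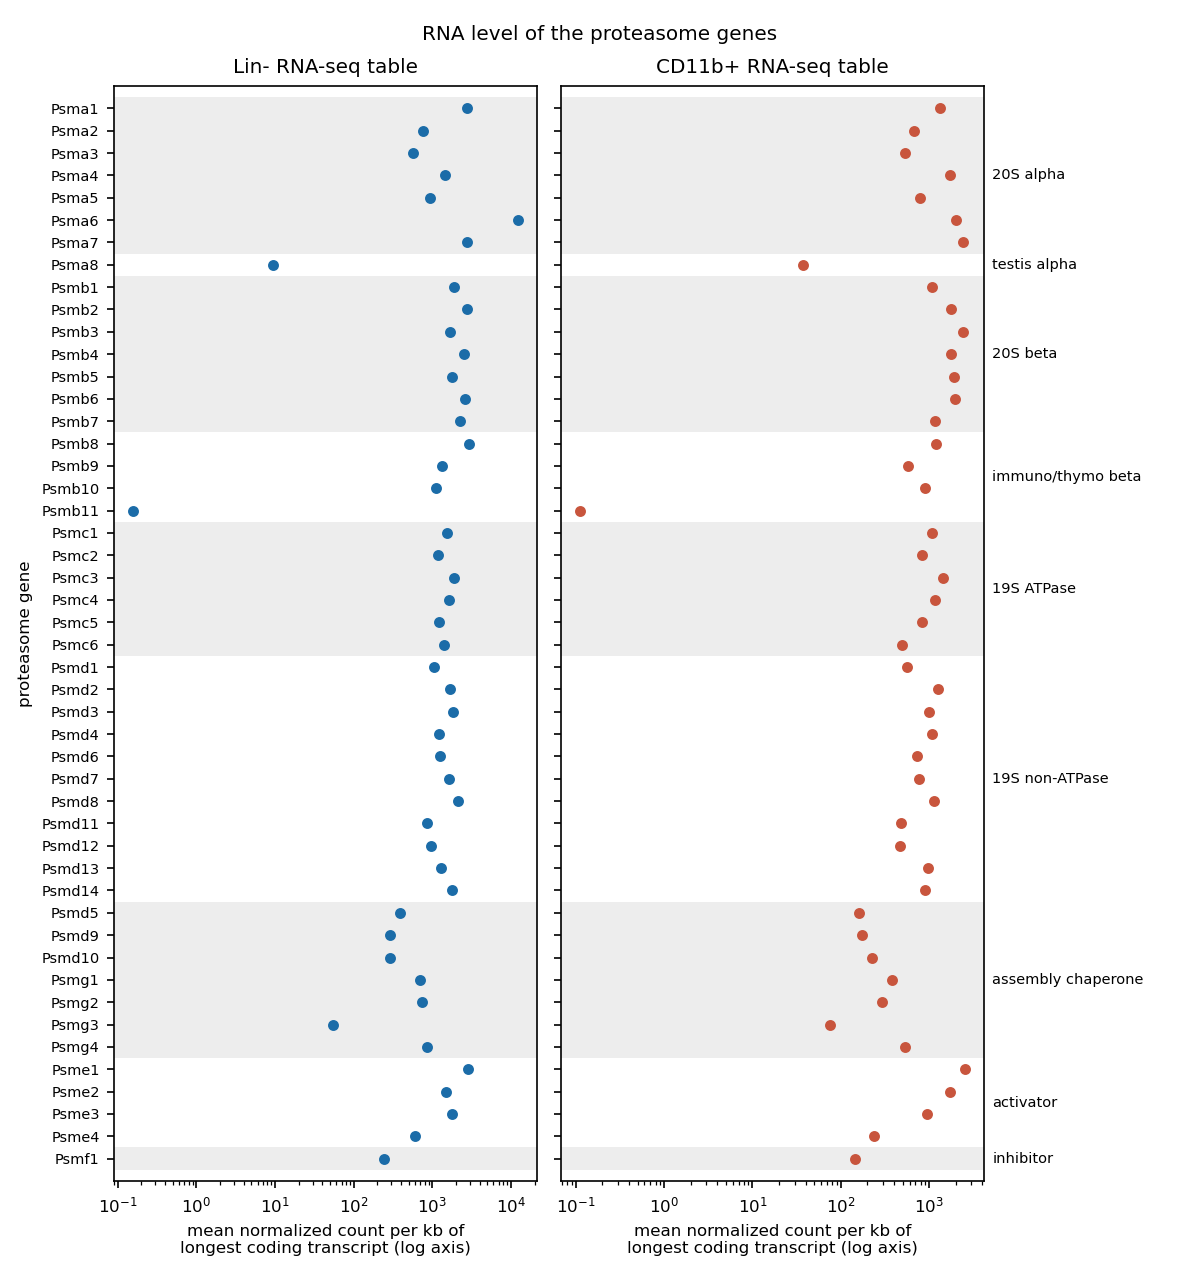
Mean normalized count per kb of the longest coding transcript (log axis) of the 48 proteasome genes, grouped by role, in the Lin- table (left) and the CD11b+ table (right), 1 point per gene, with no error bars because only means were used. Psma6 is highest in Lin- cells at 12224, and Psmb11, Psma8 and Psmg3 lie below the others in both.

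Within Lin- cells the genes with a peak had a median mean normalized count of 2506.5 and those without one 737, and in CD11b+ cells 1733 and 1209. Their spans had medians of 12.1 kb with and 13.1 kb without a Lin- peak, and of 13.4 and 11 kb for CD11b+ peaks. The median proteasome peak was 49 bases in Lin- and 58 in CD11b+ cells, against 48 and 51 over all genes, and 32 of 89 Lin- peaks and 8 of 45 CD11b+ peaks had 3 as the last number in their names. With p below 0.001, 23 and 15 peaks were left.

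Genes that work with the proteasome were read from a list of 30 symbols, of which 27 were in the tables. A filtered peak was on 23 of 27 (Lin-) and 22 of 27 (CD11b+), and 20 and 12 had peaks in at least 2 biological libraries. Over genes at or above the proteasome genes' lower quartile the shares were 81.8% and 67.9% for any library, and 54.3% and 37.3% for 2 biological libraries. Of the 19S parts outside the naming rule, Sem1 had a peak in 4 of 6 Lin- libraries and Adrm1, a ubiquitin receptor, in 3, and neither had one in CD11b+ cells. Nfe2l1, a transcription factor that induces proteasome genes, had none in Lin- cells and a peak in 4 of 4 CD11b+ libraries. Ddi2, the protease that activates it, had peaks in 3 libraries of each cell type. Ecpas, a proteasome adaptor, had peaks in 6 Lin- and 3 CD11b+ libraries, and Zfand5, a proteasome activator, in 6 and 4. Vcp, the ATPase that delivers ubiquitinated proteins, had peaks in 6 and 2, and the shuttle factor Rad23b in 6 and 3. The antigen-processing genes B2m, Tap1 and Tap2 had peaks in 6, 5 and 6 Lin- libraries and 4, 3 and 3 CD11b+ libraries.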

How the data were processed

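RNA-seq and eCLIP of MLL-Af4 Lin- and CD11b+ cells were used as deposited. The authors mapped reads to mm10 (STAR 2.5.3a, Bowtie2 and DESeq2 are named in the submitters' processing notes) and deposited, for each cell type, 1 signal value per gene, the mean normalized count over its wild type and KO libraries. Columns with the authors' fold changes, their errors, p-values and peak marks were not used. Peaks were called per library by the authors with CLIPper and filtered on smInput. In a check of the files, no filtered peak overlapped a peak of its own smInput library. Kept peaks that overlapped a peak of some smInput library numbered 968 of 10042 in Lin- biological 2 and 912 of 6494 in technical 5. The other eCLIP libraries had 167 to 357. Of 1377 peaks removed in Lin- technical 5, 313 overlapped its own smInput and 1376 some smInput library. The track lines show other deduplication and peak settings for eCLIP than for smInput. Depth was not given, and technical libraries were not tied to biological ones by the labels.

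Genes were matched by Ensembl ID, and peaks were placed by their middle base on GENCODE M21 (GRCm38), with exons taking precedence. Splice sites were those of the transcript with the longest coding sequence. Sequences came from GRCm38, strand of the gene. Intervals are 95% Wilson intervals and cover counting only. Libraries were compared with two-sided exact permutation tests. Python 3.11.15, pandas 2.3.3, SciPy 1.17.1 and pysam 0.24.0 were used, and the helper functions were tested on simulated data.

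An eCLIP library and the smInput of the same number share a library code, so the replicate block pairs them. Lin- and CD11b+ libraries share only a number. Genes were named by a rule: all members by class, with values for those with a peak in at least 2 libraries of a cell type, the members with the most merged peaks, the extremes per kb of each class, and the catalytic, immunoproteasome, activator and inhibitor genes. Alternatives were other libraries, thresholds, windows, transcripts and denominators, of which the splice, exon 1 and run shares, the 25 and 100 base windows, the span stratum and the omission of Lin- 2 and 5 were chosen after seeing the data. Some genes of the pathway list are not reported here by name. The members and lists were chosen with earlier results of these data known. Where nothing says that samples came from separate cultures or animals, the p-values measure the spread between these samples.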

Additional observations from a re-analysis of the deposited data

How the results depend on the processing

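Of 117 alternatives to 21 results, 79 left the value on the same side or within its spread and changed no call. In 32 the value moved, in 1 it reversed, and in 5 the test passed the threshold of 0.05, as given below. With biological libraries the Lin- against CD11b+ and eCLIP against smInput designs could not reach the threshold of 0.05 in an exact permutation test. With technical libraries counted as independent, exact permutation tests passed it for the peak share (0.787 per 1000, p = 0.0238), the splice-site share (42.0 points, p = 0.019), the CA or GT share (-33.9 points, p = 0.00476), and eCLIP against smInput in Lin- (1.19, p = 0.00649) and CD11b+ cells (0.858, p = 0.0286). The number of genes per library reversed in technical libraries alone (-1.0, exact permutation p = 0.7), and the cause was not tested. Leaving out 1 biological library gave 0.777 to 1.37 per 1000, 5.0 to 8.0 genes, 15.6 to 41.4 points near a splice site, 4.78 to 14.5 in exon 1, -39.7 to -11.7 for runs, and for eCLIP against smInput 0.611 to 1.38 in Lin- and 1.1 to 1.15 in CD11b+ cells. Peaks with p below 0.001 gave smaller differences between cell types, 0.443 per 1000, 1.0 genes, 9.8 points near a splice site and -9.4 for runs (exact permutation p = 0.3, 0.5, 0.7 and 0.4), and 19.8 in exon 1.

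With the replicate block, eCLIP exceeded smInput by 0.955 in Lin- (exact permutation p = 0.25) and 1.13 in CD11b+ cells (exact permutation p = 0.5), the smallest p possible. Between cell types, where only a number is shared, the replicate block gave 0.777 per 1000, 5.5 genes, 19.9, 14.5 and -26.4 points (exact permutation p = 0.5 each). It changed no call.

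Genes with a Lin- peak numbered 17 in technical libraries alone, 14 in at least 2 biological libraries and 13 with peak p below 0.001. In CD11b+ cells they numbered 4 in 2 biological libraries, 12 and 9 in either biological library alone, and 9 with p below 0.001. The share of all genes with a peak was 28.7%, 81.8% and 85.2% in Lin- and 25%, 67.9% and 70.3% in CD11b+ cells for genes in the members' range, above their lower quartile, and also of like span. With p below 0.001, 14 Lin- and 10 CD11b+ regions were left, and CD11b+ biological libraries held 20. Intronic shares were 21.7% (Lin-, any exon overlap), 85.0% and 93.8% (longest coding transcript). At least 3 CA dinucleotides, adjacent or not, were in 48.3% of Lin- and 53.1% of CD11b+ regions. This count is not one of CA runs. Splice-site shares in Lin- cells were 63.3% at 25 bases, 90% at 100 bases, 57.1% with p below 0.001 (50% in CD11b+ cells) and 91.1% without Lin- 2 and 5, and 12.5% at 25 bases in CD11b+ cells. Median percentiles were 80.4, 91.8 and 93.5 in Lin- and 81.2, 89.9 and 91.6 in CD11b+ cells for genes of at least 10 counts, per kb of merged exons and per kb of the longest transcript. Peaks of few reads and unknown depth limit every count.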
